A study of Rattus norvegicus with 8 samples.

Results

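Fatty acid oxidation and PPAR target genes are described here as a set of 10 genes, *Pdk4*, *Angptl4*, *Cpt1a*, *Cpt1b*, *Cpt2*, *Acadl*, *Acadm*, *Hadha*, *Plin2*, and *Ucp3*, out of 32883 genes counted. They were found by gene symbol in the deposited annotation, and each symbol matched a single Ensembl gene. All 10 passed the filter on low counts, which kept 13937 genes. Their expression was measured by sequencing polyadenylate mRNA from the right Achilles tendon of 8 male wild-type SD rats aged 8 to 10 weeks. In the 12 hours p.r. group, 4 rats ran on a treadmill for 1 hour and were killed 12 hours later (p.r., post-run), while the 4 naïve control (NC) rats rested in cages and were killed at the same time. Each rat gave 1 library of whole tendon tissue, so fewer cells of a type and less RNA per cell cannot be told apart.

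Fatty acids enter mitochondria as carnitine esters and are then shortened step by step by beta-oxidation. The peroxisome proliferator-activated receptors (PPARs) are nuclear receptors that bind fatty acids, pair with retinoid X receptors on DNA, and switch on genes of this pathway. *Pdk4*, *Angptl4*, *Cpt1a*, and *Plin2* are well-known PPAR targets that respond to fasting and exercise in muscle and fat.

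The libraries held between 7350509 and 12951397 counted reads, and expression is given below as CPM, reads per 1e6 reads of the scaled library. The tendon markers were present in all rats, with a summed level of 9 tenocyte genes between 16700 and 48988 CPM. The lowest of these sums belonged to 12 hours p.r. replicate 3, which also stood apart in skeletal muscle markers. Its 12 measured muscle genes summed to 70257 CPM, 18.2 times the median of the other 7 rats (3866 CPM), and 10 of the 12 were highest in it. NC replicates 2 and 3 came next, at 11144 and 13185 CPM. The summed level of 9 adipocyte markers ran from 3480 to 9210 CPM at 12 hours p.r. and from 5067 to 8261 CPM in the NC group, so fat-cell transcripts were abundant in every library. The sums of the leukocyte, endothelial, cartilage, and brown adipocyte markers overlapped between the groups. *Ucp1*, the defining gene of brown fat, had 2 reads over the 8 rats. Because muscle and fat both use this pathway, the comparison below was repeated without 12 hours p.r. replicate 3.

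Per unit of gene length, the beta-oxidation enzymes were the most abundant of the 10 genes in the resting tendon. *Acadm* was at 64.1 ± 8.08 FPKM (SD, n = 4 NC rats), *Acadl* at 48.3 ± 7.53 FPKM (SD, n = 4), and *Hadha* at 44.0 ± 3.99 FPKM (SD, n = 4). *Acadm* was above *Acadl* in all 8 rats, while *Acadl* and *Hadha* changed order between rats, with *Acadl* higher in 3 of 8. The lipid droplet gene *Plin2* followed at 25.6 ± 2.24 FPKM (SD, n = 4), below *Hadha* in all 8 rats. A middle group in the NC rats held *Pdk4* at 10.8 ± 5.50 FPKM, *Cpt2* at 10.7 ± 1.67 FPKM, *Cpt1a* at 6.86 ± 0.710 FPKM, *Cpt1b* at 5.01 ± 1.91 FPKM, and *Angptl4* at 4.91 ± 1.83 FPKM (SD, n = 4 each). *Cpt2* was above *Cpt1a* in all 4 NC rats, whereas *Cpt1a* and *Cpt1b* did not keep their order, with *Cpt1a* higher in 3 of 4. *Ucp3* was the lowest at 1.03 ± 0.454 FPKM (SD, n = 4), below *Cpt1b* in all 8 rats.

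Compared to the NC group, none of the 10 genes passed an adjusted p value of 0.05 at 12 hours p.r., where 0.00718% of all genes tested did (quasi-likelihood F test of edgeR, p values adjusted by Benjamini-Hochberg for 13937 genes). DESeq2's Wald test also called 0 of the 10, against 0.671% of the genes it tested, while its unadjusted p value was under 0.05 for 4 higher genes (*Ucp3* in addition to those named next) and 0 lower ones, where it was for 4.96% of all genes higher and 4.37% lower. At an unadjusted p value under 0.05, 3 were higher (*Angptl4*, *Cpt1a*, and *Plin2*) and 0 were lower, where 5.44% of all genes tested were higher and 4.08% lower. All 10 log2 fold changes (log2FC, 12 hours p.r. over NC, from edgeR) were above 0, as were 54.2% of those of all genes, and their median was 0.27 against 0.02 for all genes tested. This shared direction did not hold in every fit. Without NC replicate 3, *Acadl* and *Acadm* were slightly below 0, as they and *Cpt2* were without NC replicate 4 (at lowest −0.057). Of the 10 genes, 9 were highest in 12 hours p.r. replicate 3, which was the highest rat for 21.7% of all genes tested. Without this rat, 5 of the 10 log2FC values were above 0 and 5 below, and their median was 0.0024. The unadjusted p value was then under 0.05 for the same 3 genes, which were higher, and for *Cpt1b*, which was lower, where 5.78% of all genes were higher and 5.32% lower. In no gene of the set did the groups keep apart, while 6.06% of all genes tested had groups that did not overlap (3.52% higher and 2.55% lower).

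**Figure D1:**
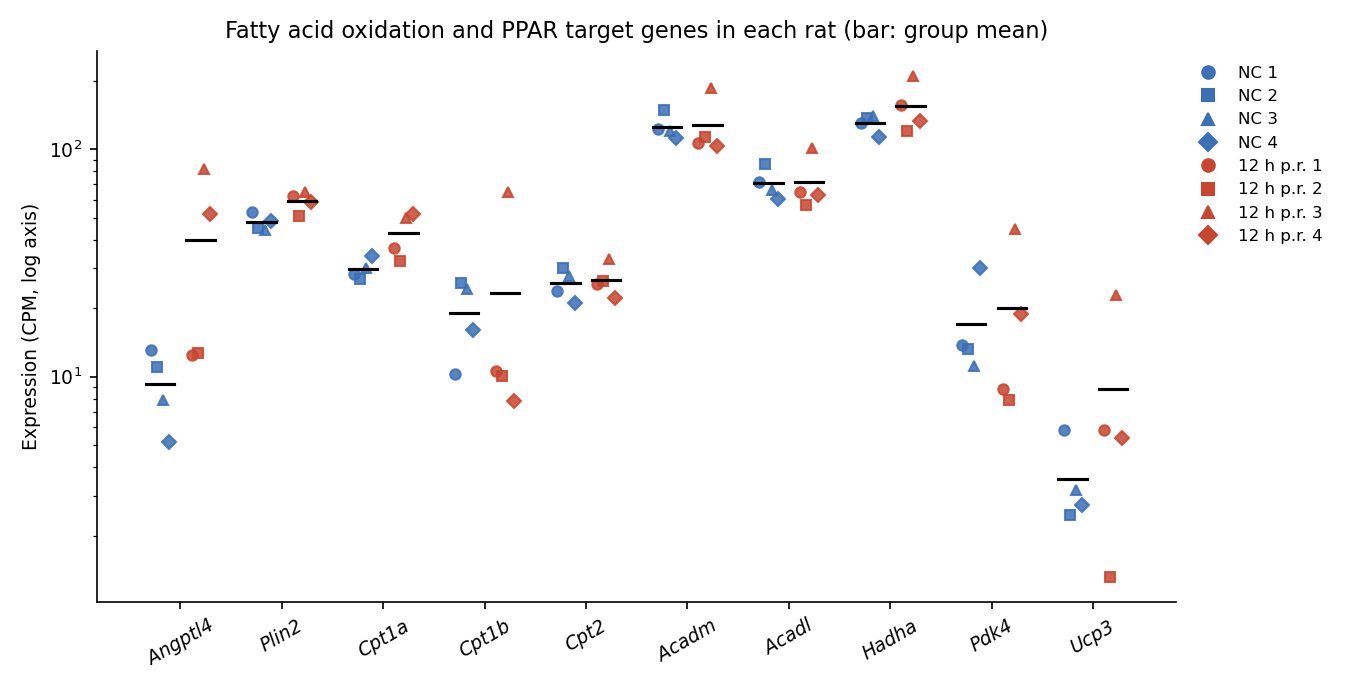
Expression of the 10 genes in each rat, in CPM on a log axis, with NC rats in blue, 12 hours p.r. rats in red, a marker shape per replicate number, and a black bar at each group mean. The red triangle, 12 hours p.r. replicate 3, is the highest point for 9 of the 10 genes, and *Angptl4* shows 2 running rats near the NC rats and 2 far above them.

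*Angptl4* (ENSRNOG00000007545) had the largest difference of the set. It encodes a secreted protein that inhibits lipoprotein lipase, the enzyme that frees fatty acids from circulating triglycerides. Its expression was 12.4, 12.6, 82.1, and 51.8 CPM in 12 hours p.r. replicates 1 to 4 and 13.1, 11.0, 7.93, and 5.18 CPM in NC replicates 1 to 4. Running replicates 3 and 4 were far above all NC rats, while running replicates 1 and 2 lay just below the highest NC rat, so the groups overlapped. The group means were 39.8 ± 33.8 CPM after running and 9.3 ± 3.47 CPM at rest (SD, n = 4 each), a log2FC of 2.1 (SE 0.63, unadjusted p = 0.00838, edgeR adjusted p = 0.433). A 2-sided exact permutation test of the rats gave p = 0.0857, where 4 rats against 4 allow no p below 0.0286. Without 12 hours p.r. replicate 3 the log2FC was 1.48 (edgeR adjusted p = 0.404). Replicate 4, with 51.8 CPM of *Angptl4*, had a muscle marker sum of 3866 CPM, within the range of the NC rats. With the muscle marker mean as a covariate the log2FC was 1.85 (edgeR adjusted p = 0.276).

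As the genes with the largest log2FC values of the set, *Angptl4* and *Ucp3* are shown with the 250 bases before a transcript start, read from the RefSeq table of promoters (assembly GRCr8), 5′ to 3′ on the strand of the gene. Capitals mark TATAAA, the TATA box, and AGGTCA, the core motif of nuclear receptor sites, on either strand. The *Angptl4* window is chr7:15258682-15258931 on the minus strand, and that of *Ucp3* is chr1:164227660-164227909 on the plus strand.
*Angptl4*: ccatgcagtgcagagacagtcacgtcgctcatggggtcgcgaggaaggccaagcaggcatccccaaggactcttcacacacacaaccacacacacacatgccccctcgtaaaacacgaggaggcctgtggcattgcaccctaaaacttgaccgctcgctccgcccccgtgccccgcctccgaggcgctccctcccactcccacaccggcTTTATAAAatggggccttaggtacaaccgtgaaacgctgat
*Ucp3*: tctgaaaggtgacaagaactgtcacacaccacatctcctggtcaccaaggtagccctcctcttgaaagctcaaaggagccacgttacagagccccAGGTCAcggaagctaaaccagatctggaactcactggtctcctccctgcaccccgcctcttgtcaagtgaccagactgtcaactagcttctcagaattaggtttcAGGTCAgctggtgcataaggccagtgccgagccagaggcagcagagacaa
In *Angptl4* the capitals are 2 overlapping TATA matches, on opposite strands, 41 and 39 bases before the start. *Ucp3* has AGGTCA 155 and 50 bases before its start. Windows were listed for 8 of the 10 genes (9 windows, *Plin2* having 2), while *Acadl* and *Cpt1b* had none in the table. TATAAA was present in *Angptl4* alone of these, and in 12.9% of all 33469 windows of the same length. AGGTCA was present in *Ucp3* alone, and in 14.1% of all windows. A relaxed PPAR element, AGGNCA repeated after 1 base of any kind (N is any base), was in 0 of the 9 windows and in 0.368% of all windows, and the FOXO motif GTAAACA was in 0 of the 9 and in 3.21%. These are matches of letters within short windows, and the RefSeq start may not be the start used in tendon. For *Angptl4* the listed gene extends upstream of the start shown.

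*Plin2* (ENSRNOG00000007060) encodes perilipin 2, the coat protein of lipid droplets in most cell types. It was at 62.5, 50.9, 64.5, and 58.8 CPM in 12 hours p.r. replicates 1 to 4 and at 53.1, 45.0, 44.1, and 48.5 CPM in NC replicates 1 to 4. Of the running rats, 3 were above every NC rat, and replicate 2 lay below NC replicate 1 only. The means were 59.2 ± 6.03 CPM after running and 47.7 ± 4.1 CPM at rest (SD, n = 4 each), a log2FC of 0.31 (SE 0.10, unadjusted p = 0.0136, edgeR adjusted p = 0.433; 2-sided exact permutation test, p = 0.0571). This gene depended little on 12 hours p.r. replicate 3, with a log2FC of 0.27 without it (edgeR adjusted p = 0.423). Its level in that rat was 1.27 times the median of the other 7 rats, the smallest ratio in the set.

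The carnitine palmitoyltransferases carry long-chain fatty acids into mitochondria. CPT1 on the outer membrane sets the rate and is blocked by malonyl-CoA, with CPT1A as the form of liver and most tissues and CPT1B as the form of muscle, while CPT2 on the inner membrane completes the transfer. *Cpt1a* (ENSRNOG00000014254) was at 36.8, 32.1, 49.98, and 51.7 CPM in 12 hours p.r. replicates 1 to 4 and at 28.1, 26.9, 30.1, and 33.9 CPM in NC replicates 1 to 4. All running rats but replicate 2 were above every NC rat, and that rat lay between NC replicates 3 and 4. The means of 42.7 ± 9.68 CPM after running and 29.8 ± 3.07 CPM at rest (SD, n = 4 each) gave a log2FC of 0.52 (SE 0.16, unadjusted p = 0.0109, edgeR adjusted p = 0.433; 2-sided exact permutation test, p = 0.0571). Without 12 hours p.r. replicate 3 it was 0.44 (edgeR adjusted p = 0.415). As with *Angptl4*, running replicates 3 and 4 were the 2 highest of all rats.

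*Cpt1b* (ENSRNOG00000010438) followed no such order. Its levels were 10.6, 10.01, 65.0, and 7.79 CPM in 12 hours p.r. replicates 1 to 4 and 10.3, 25.8, 24.2, and 16.0 CPM in NC replicates 1 to 4. The 3 highest rats, running replicate 3 and NC replicates 2 and 3, were the same 3 that held the most muscle marker transcripts. With all rats the log2FC was 0.30 (SE 0.67, edgeR adjusted p = 0.916), and without 12 hours p.r. replicate 3 it was −1.01 (unadjusted p = 0.011, edgeR adjusted p = 0.394), since the remaining running rats averaged 9.47 ± 1.49 CPM (SD, n = 3) against 19.0 ± 7.25 CPM (SD, n = 4) at rest. The muscle markers of the NC group reached 13185 CPM, against at most 3866 CPM in these 3 running rats. With the muscle marker mean as a covariate the log2FC was −0.23 (edgeR adjusted p = 0.857). *Cpt2* (ENSRNOG00000012443) ranged from 22.2 to 33.0 CPM at 12 hours p.r. and from 21.1 to 30.2 CPM in the NC group, with a log2FC of 0.06 (SE 0.15, edgeR adjusted p = 0.93). It was −0.06 without 12 hours p.r. replicate 3.

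**Figure D2:**
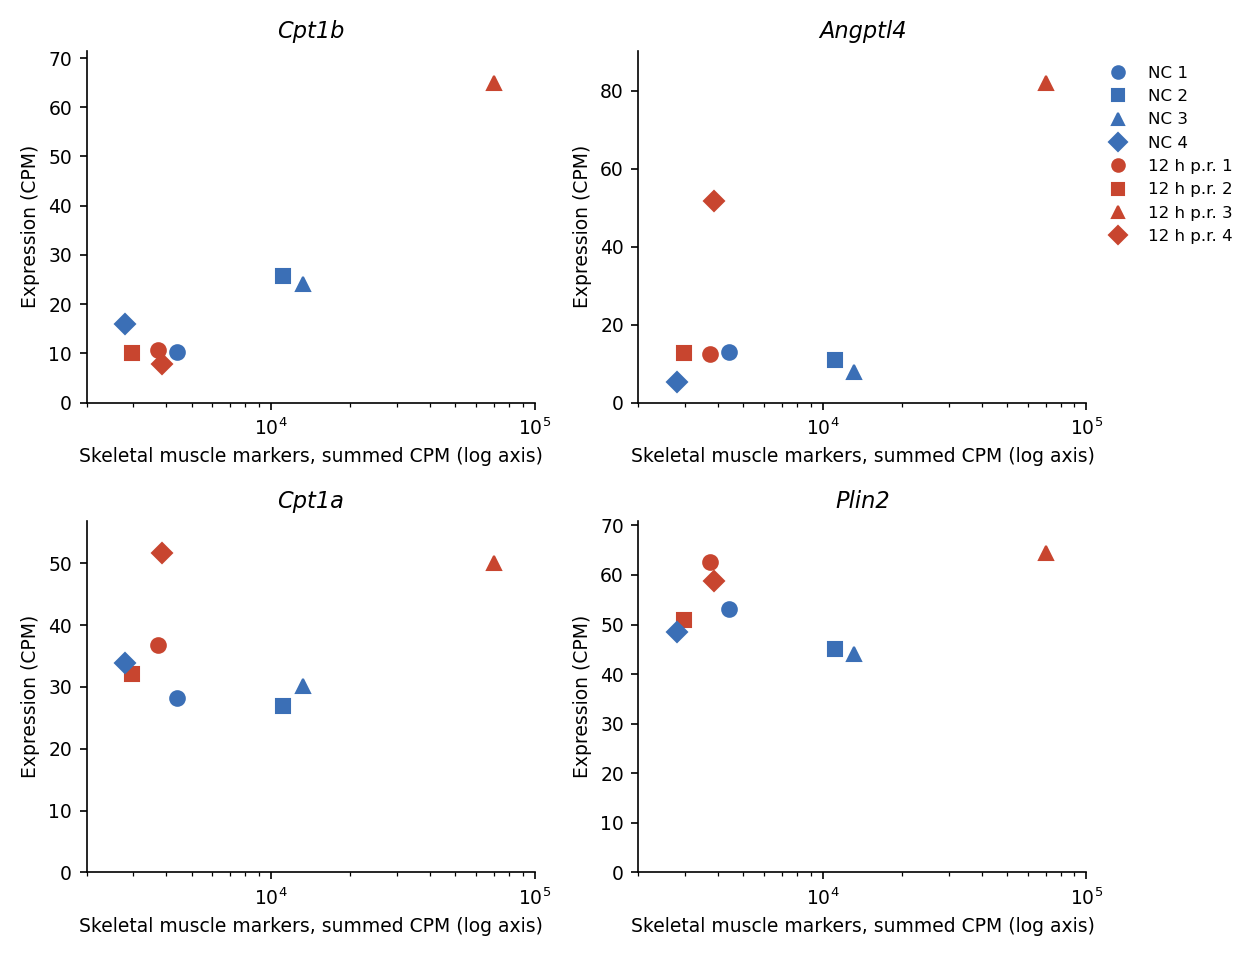
Expression of *Cpt1b*, *Angptl4*, *Cpt1a*, and *Plin2* in CPM against the summed CPM of 12 skeletal muscle markers on a log axis, with 1 point per rat (NC blue, 12 hours p.r. red). *Cpt1b* is highest in the 3 rats with the highest muscle sums, while *Angptl4* and *Cpt1a* are also high in 12 hours p.r. replicate 4, whose muscle sum is 3866 CPM.

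The mitochondrial beta-oxidation enzymes differed little between the groups. *Acadm* (ENSRNOG00000009845), the medium-chain acyl-CoA dehydrogenase gene, was at 107, 113, 186, and 104 CPM in 12 hours p.r. replicates 1 to 4 and at 122, 148, 120, and 111 CPM in NC replicates 1 to 4. Running replicate 3 was the highest rat, while the other running rats, at 104 to 113 CPM, lay near the lowest NC rat. The log2FC was 0.02 (SE 0.20, edgeR adjusted p = 0.985) and −0.22 without 12 hours p.r. replicate 3 (edgeR adjusted p = 0.522). *Acadl* (ENSRNOG00000012966), the long-chain acyl-CoA dehydrogenase gene, was likewise highest in running replicate 3 and overlapped elsewhere. Its levels were 65.1, 56.8, 101, and 63.1 CPM in the running rats and 71.4, 86.0, 65.9, and 60.2 CPM in the NC rats, a log2FC of 0.02 (SE 0.19, edgeR adjusted p = 0.988) that was −0.20 without 12 hours p.r. replicate 3. For *Hadha* (ENSRNOG00000024629), the alpha subunit of the mitochondrial trifunctional protein, the values were 156, 121, 210, and 132 CPM against 130, 137, 140, and 113 CPM. Its log2FC was 0.25 (SE 0.17, edgeR adjusted p = 0.677), or 0.07 without 12 hours p.r. replicate 3. In that rat these 3 enzymes were between 1.56 and 1.64 times the median of the other rats, and *Cpt1b* was 6.12 times.

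*Pdk4* (ENSRNOG00000009565) encodes a kinase that shuts off pyruvate dehydrogenase and so spares glucose when fat is burned. Its levels were 8.8, 7.9, 44.4, and 18.8 CPM in 12 hours p.r. replicates 1 to 4 and 13.7, 13.2, 11.2, and 29.9 CPM in NC replicates 1 to 4. Running replicate 3 was the highest rat, yet NC replicate 4 was second and running replicates 1 and 2 were the lowest of all. The log2FC was 0.23 (SE 0.55, edgeR adjusted p = 0.921) and −0.51 without 12 hours p.r. replicate 3 (edgeR adjusted p = 0.687). Within the running group, replicates 3 and 4 were above replicates 1 and 2 in *Pdk4*, *Angptl4*, and *Cpt1a* alike. The NC group did not show this combination, since NC replicate 4 had the highest *Pdk4* and *Cpt1a* levels of that group and its lowest *Angptl4* level. The order was picked out after seeing the values. The other genes of the set did not follow it, since running replicate 1 was above running replicate 4 in each of them.

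*Ucp3* (ENSRNOG00000017716), a mitochondrial carrier gene used mainly by skeletal muscle and brown fat, was at 5.82, 1.32, 22.7, and 5.35 CPM in 12 hours p.r. replicates 1 to 4 and at 5.85, 2.45, 3.17, and 2.72 CPM in NC replicates 1 to 4. The lowest value rested on 10 reads. Apart from running replicate 3, no running rat was above the highest NC rat. The log2FC was 1.3 (SE 0.71, edgeR adjusted p = 0.592), and without 12 hours p.r. replicate 3 it was 0.23 (edgeR adjusted p = 0.891). *Ucp3* in that rat was 7.17 times the median of the other 7 rats, the highest ratio in the set. Among the NC rats, replicate 1 had the highest *Ucp3* level and a muscle sum of 4397 CPM.

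**Figure D3:**
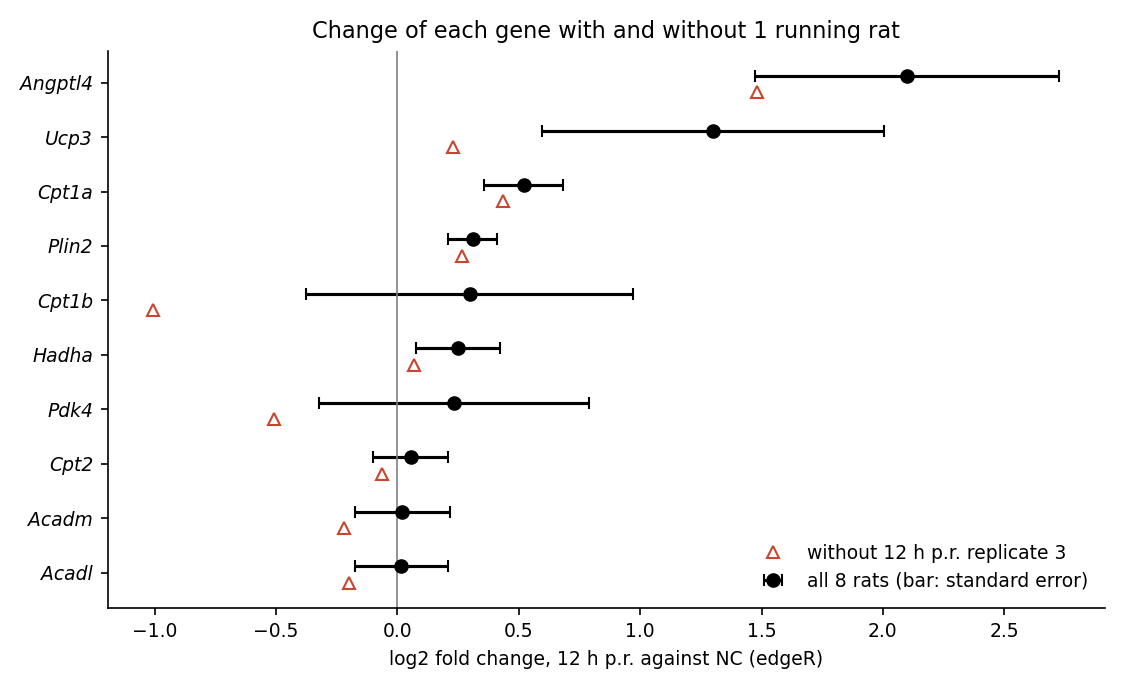
The log2FC of each gene at 12 hours p.r. against NC by edgeR, with all 8 rats (black, bar of 1 standard error) and without 12 hours p.r. replicate 3 (open red triangle). *Angptl4*, *Cpt1a*, and *Plin2* stay above 0 in both, while *Pdk4*, *Cpt1b*, *Cpt2*, *Acadm*, and *Acadl* move from above to below 0.

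The other genes of the pathway were taken from 11 lists. Of 94 such genes in the count table that are not among the 10, 89 were tested, and 6 were higher and 2 lower at an unadjusted p value under 0.05 (8.99%, where 9.51% of all genes tested had such a p value). None passed an adjusted p value of 0.05, the lowest being 0.404, and their median log2FC was 0.05. The groups did not overlap in 5 of these 89 genes, where 6.06% of all genes tested had such groups. Without 12 hours p.r. replicate 3 the median was −0.10. At an unadjusted p value under 0.05, 4 were then higher and 12 lower, where 5.78% of all genes were higher and 5.32% lower. Of the pathway genes with small p values, more were thus lower than higher without this rat. The groups then also differed in muscle markers. The median log2FC of the 12 muscle genes was −1.19 without this rat, against 1.45 with all rats. How muscle RNA bears on the lower genes as a set was not tested. With all rats, the share of the wider pathway with small p values was near that of all genes tested. Of the 15 mitochondrial beta-oxidation genes tested, 14 were highest in 12 hours p.r. replicate 3, and 0 of 15 had an unadjusted p value under 0.05. The most abundant of them, *Hadhb*, the partner subunit of *Hadha*, had a log2FC of 0.08 (SE 0.23) that was −0.25 without this rat. With all rats and the muscle marker mean as a covariate it was 0.0014. All 8 peroxisomal beta-oxidation genes tested had an unadjusted p value over 0.05, with *Hsd17b4* at 107 ± 12.9 CPM after running and 101 ± 13.8 CPM at rest (SD, n = 4 each).

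Counting the 10 genes as well, 2 of 8 carnitine shuttle genes, 1 of 11 lipid droplet genes, 1 of 10 pyruvate dehydrogenase genes, and 2 of 3 genes of the angiopoietin-like regulation of lipoprotein lipase were higher at an unadjusted p value under 0.05, and 0 in these lists were lower, where 5.44% of all genes tested were higher and 4.08% lower. Without 12 hours p.r. replicate 3, 0 of 10 pyruvate dehydrogenase genes were higher and 4 lower, and 2 of 8 carnitine shuttle genes were higher and 1 lower. Of 11 lipid droplet genes 2 were then higher and 1 lower, and of 15 mitochondrial beta-oxidation genes 3 were lower and 0 higher. In that fit, 5.78% of all genes tested were higher and 5.32% lower, and the median log2FC of the skeletal muscle markers was −1.19. Of 14 uptake genes, 2 were lower and 0 higher without this replicate, and 1 was lower and 0 higher with all rats. Of the 4 uncoupling and 7 malonyl-CoA genes tested, 0 had such a p value in either fit. Their median log2FC values with all rats were 0.19 and −0.36.

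**Figure D4:**
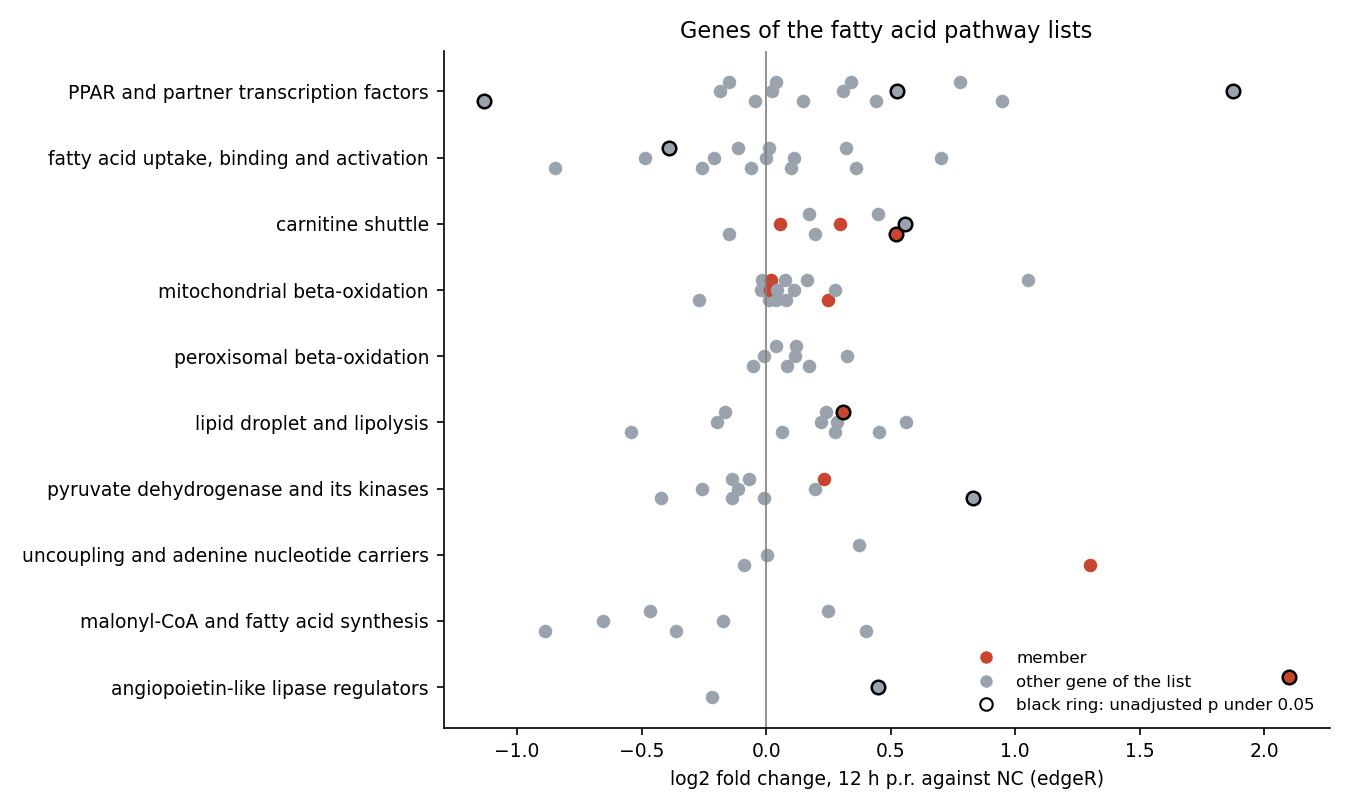
The log2FC values of the tested genes of 10 of the pathway lists at 12 hours p.r. against NC, with 1 point per gene, the 10 genes of the set in red, and a black ring at an unadjusted p value under 0.05. Of the mitochondrial and peroxisomal beta-oxidation genes, 0 carry a ring, while *Angptl4*, at the lower right, lies furthest above 0.

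Of the receptors themselves, *Pparg*, the fat-cell PPAR, was the most abundant in the NC group at 37.6 ± 9.07 FPKM (SD, n = 4), followed by *Ppard* at 3.24 ± 0.504 FPKM (SD, n = 4) and *Ppara* at 0.657 ± 0.159 FPKM (SD, n = 4). Their log2FC values at 12 hours p.r. were 0.02 (SE 0.32, edgeR adjusted p = 0.988) for *Pparg*, 0.15 (SE 0.14, edgeR adjusted p = 0.769) for *Ppard*, and 0.34 (SE 0.43, edgeR adjusted p = 0.831) for *Ppara*, so none passed the test. Without 12 hours p.r. replicate 3 these values were −0.13, 0.19, and −0.22. At an unadjusted p value under 0.05, 2 of the 14 receptors and partners tested were higher and 1 was lower. Of all genes tested, 5.44% were higher and 4.08% lower. Without 12 hours p.r. replicate 3, 1 of the 14 was higher and 1 lower, where 5.78% of all genes were higher and 5.32% lower. *Rxra*, a retinoid X receptor gene, was at 50.1, 35.4, 63.5, and 41.6 CPM in the running rats and 35.4, 33.5, 35.6, and 28.0 CPM in the NC rats, a log2FC of 0.52 (SE 0.18, unadjusted p = 0.0151, edgeR adjusted p = 0.437) that was 0.35 without 12 hours p.r. replicate 3. Of the other retinoid X receptor genes, *Rxrb* had a log2FC of −0.05 (SE 0.09). *Rxrg* had one of 0.95 (SE 0.58) that was −0.01 without this replicate. *Ppargc1a*, the coactivator of mitochondrial genes, was at 1.55, 1.58, 11.1, and 1.5 CPM and at 0.882, 0.858, 1.44, and 1.02 CPM. Every running rat was above every NC rat in *Ppargc1a*, but only replicate 3 by a wide margin. The other running rats had only 12 to 16 reads of it, and the NC rats 7 to 19. Its log2FC of 1.88 (SE 0.72, edgeR adjusted p = 0.478) was 0.54 without 12 hours p.r. replicate 3. *Esrrg*, an orphan receptor of oxidative tissues, was lower in every running rat than in every NC rat. It was at 2.4 ± 0.794 CPM against 5.26 ± 1.31 CPM at rest (SD, n = 4 each), a log2FC of −1.13 (SE 0.29, edgeR adjusted p = 0.404). Its log2FC was −1.11 without 12 hours p.r. replicate 3. The highest running rat, at 3.49 CPM, was close to the lowest NC rat, at 3.62 CPM. The running rats had 17 to 27 reads of *Esrrg* and the NC rats 48 to 67. Of all genes tested, 6.06% had groups that did not overlap (3.52% higher and 2.55% lower).

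Around the carnitine shuttle, *Cpt1c*, the brain-type isoform, was at 11.5 ± 1.94 CPM after running and 7.79 ± 0.510 CPM at rest (SD, n = 4 each), and the groups did not overlap. Its log2FC was 0.56 (SE 0.15, edgeR adjusted p = 0.432) and 0.59 without 12 hours p.r. replicate 3. *Crat*, which forms acetylcarnitine and was the most abundant other gene of that list, had a log2FC of 0.45 (SE 0.29), against 0.03 without this rat. *Lmf1*, which lipoprotein lipase needs to fold, was at 13.5 ± 0.775 CPM after running against 9.87 ± 1.2 CPM at rest (SD, n = 4 each). The groups did not overlap in *Lmf1* (log2FC 0.45, SE 0.13, edgeR adjusted p = 0.432). *Cpt1c* and *Lmf1* were among the 5 of 89 other pathway genes with such groups, where 6.06% of all genes tested had them. *Angptl8*, which acts on the same lipase in the fed state, overlapped widely, at 8.74 ± 7.76 CPM after running and 10.2 ± 6.24 CPM at rest (SD, n = 4 each).

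*Oxct1*, which breaks down ketone bodies, had a log2FC of −0.30 (SE 0.19). Of the other pyruvate dehydrogenase kinases, *Pdk2* was at 23.0, 17.7, 55.2, and 22.4 CPM against 13.9, 16.9, 19.8, and 15.8 CPM, a log2FC of 0.83 (SE 0.34, edgeR adjusted p = 0.492) that was 0.34 without 12 hours p.r. replicate 3. The log2FC was −0.01 (SE 0.16) for *Pdk1* and −0.26 (SE 0.16) for *Pdk3*. *Pdha1*, a subunit of the enzyme that these kinases inhibit, had a log2FC of −0.11 (SE 0.17).

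Among the genes of fatty acid uptake, *Fabp4*, the fatty acid binding protein of fat cells, was the most abundant at 3741 ± 983 FPKM (SD, n = 4 NC rats) and had a log2FC of −0.06 (SE 0.28). *Dbi*, the acyl-CoA binding protein gene, was at 165 ± 23.2 CPM after running and 216 ± 40.9 CPM at rest (SD, n = 4 each), a log2FC of −0.39 (SE 0.16, edgeR adjusted p = 0.498), with 3 running rats below every NC rat. The lipid droplet gene *Cidec* had a log2FC of −0.20 (SE 0.29) and *Slc25a4*, the adenine nucleotide carrier of muscle and heart, had one of 0.37 (SE 0.41) that was −0.29 without 12 hours p.r. replicate 3. Of the 9 adipocyte markers, 4 were above and 5 below the NC group, and 0 had an unadjusted p value under 0.05. *Scd*, the stearoyl-CoA desaturase gene of fatty acid synthesis, varied widely, from 1267 to 4975 CPM at 12 hours p.r. and from 1563 to 10286 CPM in the NC group, with a log2FC of −0.89 (SE 0.63, edgeR adjusted p = 0.685).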

How the data were processed

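Counts per gene were deposited by the authors, after alignment to Rnor_6.0 (HISAT2 2.1.0) and counting on Ensembl genes (featureCounts 1.6.3). The deposited FPKM values are these counts divided by gene length and 1 factor per rat, made by the authors with DESeq2 1.30.1. The library kit was stranded, and the strand setting of the counting was not given in the sources used here. A table of the authors' own comparison (log2 fold changes, p-values, and repeated FPKM) was not used.

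Genes passing filterByExpr were scaled by TMM and tested by quasi-likelihood in edgeR 4.0.16, and p-values were adjusted by Benjamini-Hochberg across the table. Standard errors came from the F statistic, and exact permutation tests used log2(CPM + 0.5). The alternatives used DESeq2 1.42.0, limma 3.58.1, other factors, filters, and covariates. R 4.3.3 and Python 3.11.15 were used, and the tests were tried on simulated data.

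The 10 genes and the lists were chosen with earlier results of these data known. From each pathway list, the gene with the highest mean FPKM and up to 4 genes with an unadjusted p under 0.05 were named, besides the 3 PPAR genes. The other kinases beside *Pdk2* and the other retinoid X receptors beside *Rxra* were named in addition. Some genes that this rule names, and the counts of the ketone body list, are not reported here. Sample titles gave the group and replicate number, and 1 library per rat was used. Since the labels do not pair rats, the tests set the difference between the groups against the variation between rats within them. Depth ran from 7350509 to 12951397 reads, and among the 10 genes counting error is largest for *Ucp3*.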

Additional observations from a re-analysis of the deposited data

Results flagged for a closer look

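In a search of the 10 genes for a rat far from the other 3 of its group (20 groups of 4, Dixon's criterion, which flags about 1 in 20 by chance), 2 values stood out, both in 12 hours p.r. replicate 3. The log2(CPM + 0.5) of *Cpt1b* was 6.03 in this rat, against at most 3.47 in the other running rats. That of *Acadm* was 7.54, against at most 6.83. This rat also had the highest sum of skeletal muscle markers, 70257 CPM, and the part of muscle RNA in both values was not tested beyond the fits with a muscle covariate and without the rat.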

How the results depend on the processing

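Each value was computed again under 20 alternatives, 2 of them (robust dispersions, and leaving out together the 3 rats highest in muscle markers) chosen after seeing the data. Under none of them did any of the 10 genes pass an adjusted p value of 0.05. Of 200 log2 fold changes, 169 kept their direction and 31 were reversed, with 0 reversed for *Angptl4* (1.48 to 2.40), *Cpt1a* (0.38 to 0.63), *Plin2* (0.17 to 0.38), and *Hadha* (0.07 to 0.35). The number of genes higher at an unadjusted p value under 0.05, 3 with all rats, was 5 with the adipocyte marker mean as a covariate and 0 with the 3 muscle-rich rats left out, where 5 rats remained (*Angptl4* log2 fold change 1.501, edgeR adjusted p = 0.563). With 1 rat left out it was 3 to 4, the number lower was 0 to 1, and the median log2 fold change was 0.0024 to 0.43, the lowest without 12 hours p.r. replicate 3.

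The log2 fold changes of *Pdk4*, *Cpt1b*, *Acadl*, and *Acadm* were reversed to −0.0012, −0.14, −0.016, and −0.021 with limma on log2(FPKM + 1), to −0.020, −0.22, −0.017, and −0.022 with limma on log2(FPKM + 0.1), to −0.044, −0.23, −0.016, and −0.018 with the muscle marker mean as a covariate, and to −0.86, −0.47, −0.094, and −0.12 without the 3 muscle-rich rats, where *Ucp3* was at −0.033. With 1 rat left out they ran from −0.51 to 0.65 (*Pdk4*), −1.01 to 0.59 (*Cpt1b*), −0.20 to 0.12 (*Acadl*), −0.22 to 0.11 (*Acadm*), and −0.062 to 0.14 (*Cpt2*). The cause was not tested. The labels do not pair the rats. Deviations of the same-numbered rats correlated between −0.202 and 0.129, and those of differently numbered rats between −0.31 and 0.336. With so few rats, these correlations cannot show whether rats of the same number were handled together. With the replicate number as a block, 2 genes were higher at an unadjusted p value under 0.05, and *Pdk4*, *Cpt1b*, *Acadl*, and *Acadm* were at −0.034, −0.21, −0.0086, and −0.017.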

Other observations

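Some genes of the pathway lists had too few reads to be tested, and those below are named because of these values. *Pnpla2*, which encodes the main triglyceride lipase of fat cells, had 2 reads over the 8 rats, and *Elovl6*, a fatty acid elongase gene, had 16, in libraries where *Fabp4* was at 3741 ± 983 FPKM (SD, n = 4 NC rats). *Acot1* had 19 reads and *Ucp1* had 2. How the gene models of the annotation bear on the *Pnpla2* and *Elovl6* values was not tested.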
